A study of Mus musculus with 14 samples.

Results

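The 36 genes described here encode parts of the lysosome and of the autophagy pathway, and they were chosen by name from the 49585 genes of the table. They comprise 6 lysosomal membrane proteins, 7 cathepsins, 6 glycosidases, 3 luminal cofactors, 2 transcription factors, 6 genes of the ATG8 family and its receptor, and 6 genes of autophagy initiation and conjugation. All 36 identifiers were matched to their symbols through the GENCODE M21 annotation. The filter on low values, at least 1 FPKM in at least 3 libraries, was passed by 35 members, and Ctsk was the 1 that did not pass. FPKM is the number of fragments per kilobase of transcript, scaled to the mapped fragments of the library, so levels can be compared between genes.

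RNA was measured by sequencing in C2C12 cells, an established line of mouse myoblasts that divide as single cells and can fuse into muscle fibres. All cells carried a short hairpin RNA, either shControl or shFoxM1, the latter directed at the forkhead transcription factor FoxM1. Quiescent cells had been kept in suspension in a methylcellulose medium with serum, and activated cells are named so in the labels with no word on how activation was done. The 4 groups were quiescent shControl (3 libraries), quiescent shFoxM1 (4 libraries), activated shControl (3 libraries) and activated shFoxM1 (4 libraries). The labels do not say how the hairpins were delivered, whether each line was 1 clone, or whether the libraries of a group came from separate cultures, so each p-value is set against library-to-library spread that may be technical only.

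Lysosomes are acidic vesicles in which proteases, glycosidases and lipases break down material that arrives by endocytosis or by autophagy. In autophagy, kinases of the ULK family and a lipid kinase complex start a membrane that grows around cytoplasm, ATG8 proteins are joined to its lipids, and receptors tie cargo to them before the vesicle fuses with a lysosome. The transcription factors TFEB and TFE3 bind the E-box CACGTG in the promoters of many of these genes, and MTORC1 keeps them out of the nucleus when nutrients are plentiful.

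Promoter windows from RefSeq (GRCm38.p6, 250 bases before to 50 bases after each start) were found for 32 of the 36 members. They were not matched for Becn1, Npc1, Map1lc3a and Ctsb. The 6 letters CACGTG, which read the same on both strands, occurred in the windows of 11 of the 32 members (34.4%) and of 8.09% of the 27025 genes with a window. The members were Lamp1, Mcoln1, Ctsa, Ctsd, Ctsf, Ctsl, Gaa, Gla, Glb1, Atg5 and Atg7. In Ctsa, Ctsl and Atg7 the window with the motif lay wholly inside the gene as annotated by GENCODE, downstream of its first start. For Atg7 the 250 bases before the start were chr6:114670846-114671095, in a gene that begins at 114643097. The 8-letter form TCACGTGA, whose core is a CACGTG also counted above, occurred in 4 of 32 members (12.5%; Mcoln1, Ctsa, Ctsd and Gla) and in 1.12% of all genes. A match of letters is a description of the window and no evidence of binding. The sequences of 4 members are shown because they carry the E-box and cover the range of responses below. They are Gaa and Ctsf, which were lower in activated cells, Gla, which was higher in activated shFoxM1 cells, and Lamp1, which has the most copies and was not called. The direction of Ctsf was fixed by the filter on low values, as given below, so its call supports nothing. Each runs 5′ to 3′ on the gene's own strand and ends before the first start annotated by RefSeq or GENCODE, and capitals mark CACGTG.
Gaa promoter (GRCm38.p6, chr11:119267713-119267886, plus strand): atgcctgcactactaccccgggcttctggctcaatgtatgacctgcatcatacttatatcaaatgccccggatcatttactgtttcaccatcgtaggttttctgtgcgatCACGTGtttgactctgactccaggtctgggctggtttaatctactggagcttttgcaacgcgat
Ctsf promoter (GRCm38.p6, chr19:4854915-4855129, plus strand): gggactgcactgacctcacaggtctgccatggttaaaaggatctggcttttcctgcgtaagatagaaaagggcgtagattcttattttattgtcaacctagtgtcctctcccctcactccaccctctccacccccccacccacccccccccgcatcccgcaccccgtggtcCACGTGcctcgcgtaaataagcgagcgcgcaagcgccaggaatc
Gla promoter (GRCm38.p6, chrX:134601126-134601255, minus strand): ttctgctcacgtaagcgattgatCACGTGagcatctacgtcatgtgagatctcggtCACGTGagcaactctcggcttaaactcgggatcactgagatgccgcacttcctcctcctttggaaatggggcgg
Lamp1 promoter (GRCm38.p6, chr8:13158911-13159160, plus strand): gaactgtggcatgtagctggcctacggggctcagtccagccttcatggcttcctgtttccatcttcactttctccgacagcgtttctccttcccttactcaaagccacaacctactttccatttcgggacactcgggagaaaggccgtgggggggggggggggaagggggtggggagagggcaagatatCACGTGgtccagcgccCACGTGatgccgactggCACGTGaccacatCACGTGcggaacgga
Lamp1 had 4 copies, which began 61, 45, 28 and 15 bases before the RefSeq start. Gla had 2 copies, 227 and 194 bases before it, and both were of the 8-letter form. Gaa and Ctsf had 1 copy each, 140 and 79 bases before the start.

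The libraries had an estimated depth of 2.72e+07 to 3.61e+07 reads. Foxm1, the targeted gene, was at 23.87, 12.76 and 10.01 FPKM in quiescent shControl and at 9.95, 6.61, 8 and 15.56 in quiescent shFoxM1 libraries. It was at 37.06, 35.34 and 34.93 FPKM in activated shControl and at 14.47, 14.74, 27.58 and 11.21 in activated shFoxM1 libraries. The hairpin groups overlapped in quiescent cells and were apart in activated cells, where the log2 difference was -1.11 ± 0.32 (limma, adjusted p = 0.624). All 5 myoblast markers were present in all 14 libraries, with Des at 67.02 to 231.57, Myod1 at 4.04 to 39.71, Myf5 at 4.02 to 18.33, Cdh15 at 5.21 to 62.45 and Chrna1 at 8.35 to 45.12 FPKM. Of these, Myod1, Cdh15 and Chrna1 were lower in activated cells, as given with the other markers that moved with the state. Of 8 macrophage and blood cell markers, Cd14 (7.99 to 17.35 FPKM) was the 1 that reached 1 FPKM, Lyz2 was at 0.2 to 0.72 and Csf1r at 0.03 to 0.22, while Adgre1 was listed at 0 in all 14 libraries and Ptprc was at most 0.01. The summed level of these 8 markers was 9.17 to 11.4 FPKM in quiescent shControl, 8.55 to 15.2 in quiescent shFoxM1, 10.4 to 17.4 in activated shControl and 12.6 to 17.8 in activated shFoxM1 libraries. The 4 endothelial markers were at most 0.32 FPKM.

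Lysosome and autophagy genes were abundant in every group. Over all 14 libraries, 14 members had a mean above 100 FPKM, 17 were between 10 and 100, and 5 were under 10. The tetraspanin Cd63, a membrane protein of late endosomes and lysosomes, had the highest mean (1366 FPKM, range 1150.66 to 1657.2), followed by the autophagy receptor Sqstm1 (624 FPKM) and Lamp1 (529.8 FPKM), a main glycoprotein of the lysosomal membrane. These 3 genes made up 43.3% of the summed level of the members. The lowest were Ulk2 (9.43 FPKM), Ulk1 (8.31), Tfeb (5.79), Ctsf (0.681) and Ctsk (0.115), the last a protease known mainly from osteoclasts that lay between 0.05 and 0.3 FPKM. The summed level of the members was 6095 ± 205 FPKM (SD, n = 3) in quiescent shControl and 6115 ± 225 (SD, n = 4) in quiescent shFoxM1 libraries. It was 5537 ± 422 FPKM (SD, n = 3) in activated shControl and 5548 ± 669 (SD, n = 4) in activated shFoxM1 libraries, and the ranges of quiescent and activated libraries overlapped. As a share of the sum of protein-coding genes it was 0.99 to 1.19% in quiescent and 0.68 to 1.0% in activated libraries. The members spread unevenly. The cholesterol-binding protein Npc2 had the narrowest range (84.68 to 104.76 FPKM), while Map1lc3a differed by 5.53-fold, Gaa by 4.33-fold and Sqstm1 by 4.14-fold between the lowest and the highest library.

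**Figure D1:**
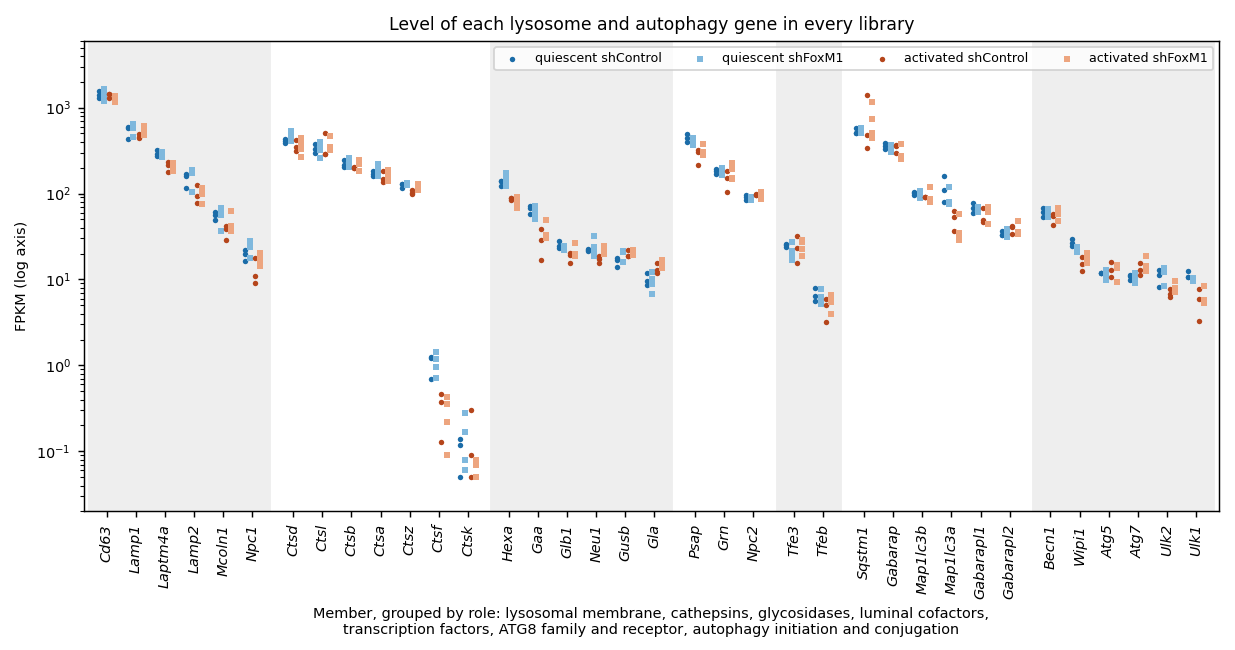
FPKM (log axis) of the 36 members in every library, grouped by role and ordered by mean level within a role, with circles for shControl, squares for shFoxM1, blue for quiescent and orange to brown for activated libraries. Cd63 stands highest with a mean of 1366 FPKM, Ctsf and Ctsk lie near or below 1 FPKM, and Sqstm1 has 2 activated libraries far above the rest, at 1388.88 and 1150.46 FPKM.

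Activation in shControl cells was accompanied by lower levels of 9 members and higher levels of none, with 26 not called. These were the glycosidases Gaa and Hexa, the cofactor precursor Psap, the cathepsin Ctsf, the membrane protein Laptm4a, the ATG8 gene Map1lc3a, and Ulk1, Ulk2 and Wipi1, which act at the start of autophagy. A call is a limma Benjamini-Hochberg adjusted p below 0.05 over the 12432 genes tested. Over all of these genes, 16.5% were called lower and 11.7% higher in this comparison, against which 9 of 35 members lower and 0 of 35 higher are to be read. The median log2 difference was -0.26 over the members and -0.11 over all genes tested. Ctsf passed the filter only through quiescent libraries, so its direction was fixed, and 8 of the other 34 members were called lower. In 15 members, Ctsf among them, every activated shControl library lay below every quiescent one, and in 1 (Gusb) every one lay above, beside 26.6% and 17.5% of all genes. With 2 other scalings the split moved. Median-of-ratios scaling called 5 members lower and Gla higher (log2 difference 0.54, limma, adjusted p = 0.035). Of all 12432 genes that scaling called 3715, of which 2131 were higher, beside 3515 and 1460 in the main model. Removal of a trend on GC content and length called 10 lower and both Gla (0.40, adjusted p = 0.0444) and Atg7 (0.42, adjusted p = 0.0208) higher. Of all 12410 genes in that fit, 3977 were called, of which 2121 were higher. In such bulk samples, fewer cells of a type and less RNA per cell cannot be told apart.

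Activation in shFoxM1 cells was accompanied by lower levels of 8 members and higher levels of 2, with 25 not called. The genes that fell were Map1lc3a, Hexa, Ctsf, Gaa, Lamp2, Ulk1, Ulk2 and Laptm4a, and those that rose were Gla and Atg7. Without Ctsf, 7 of 34 members fell. Over all genes tested, 12.3% were called lower and 18.3% higher. The median log2 difference was -0.15 over the members and 0.03 over all genes. The activated and quiescent shFoxM1 libraries did not overlap in 7 members that were lower, Ctsf among them, and 2 that were higher, beside 10.5% and 17.3% of all genes.

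The 2 activation comparisons share no library, but 1 model over all 14 libraries gave both the same estimate of spread for each gene. The calls in the 2 lines are thus not independent of each other. Called lower in both were 7 members, Gaa, Hexa, Ctsf, Laptm4a, Map1lc3a, Ulk1 and Ulk2, which is 77.8% of the lower calls in shControl and 87.5% of those in shFoxM1 cells. Without Ctsf these shares were 75% and 85.7%, and over all genes tested they were 61.8% and 82.7%. Psap and Wipi1 were called in shControl cells alone, and Lamp2, Gla and Atg7 in shFoxM1 cells alone. Each of them was called in the other line too under some other settings. Gla and Atg7 were called higher in shControl cells under the settings named above and with library weights (limma, adjusted p = 0.047 and 0.0166). Library weights called 7356 of all 12432 genes in shControl and 7055 in shFoxM1 cells. They gave quiescent shControl replicate 2 a weight of 6.83, beside 0.786 and 0.559 for replicates 1 and 3. Lamp2 was called lower in shControl cells with library weights (3.34e-04) and after correction for GC content and length (0.019). Psap and Wipi1 were called lower in shFoxM1 cells with library weights (0.00181 and 0.00137) and after that correction (0.00588 and 0.00541). For none of these 5 did the test of the difference between the responses pass (limma, adjusted p = 0.993 for each), so they are not shown to differ between the hairpins. In neither comparison were 23 members called. The log2 difference was negative in both comparisons for 25 of the 35 members (71.4%) and positive in both for 8 (22.9%), beside 44.1% and 38.2% of all genes tested.

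**Figure D2:**
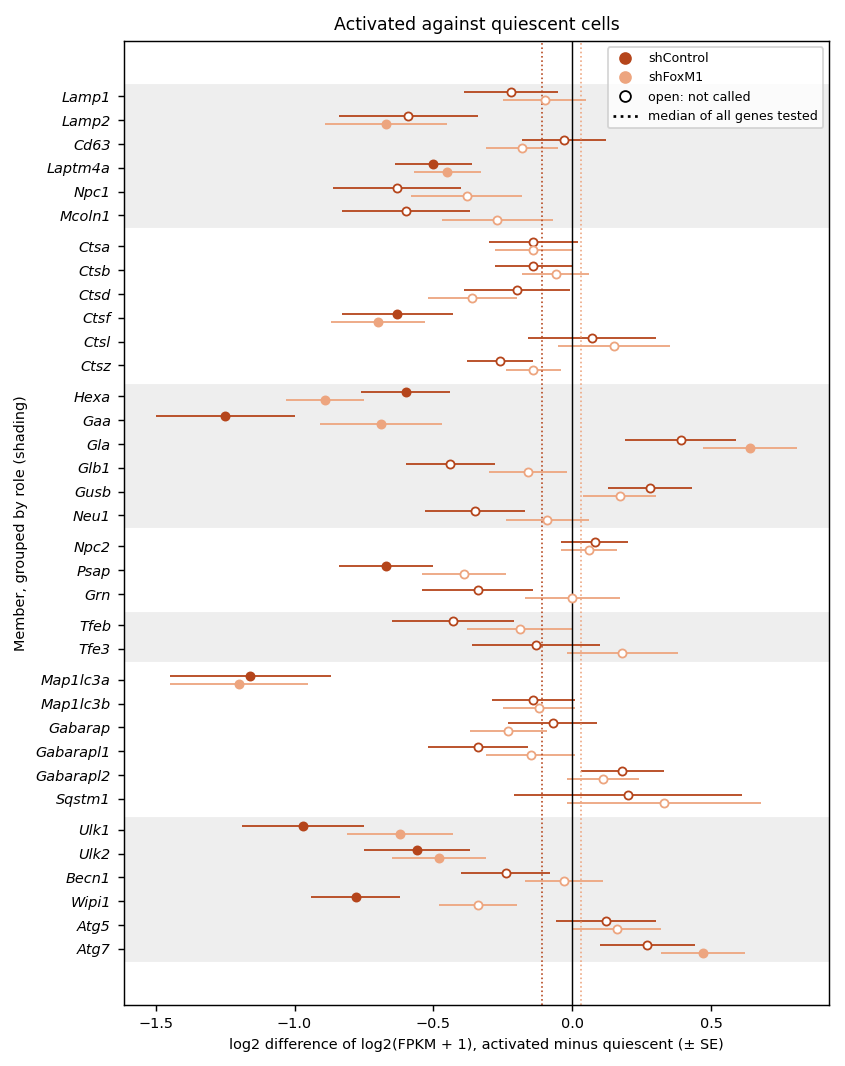
Log2 difference (± SE, on the log2(FPKM + 1) scale) between activated and quiescent cells for the 35 members tested, grouped by role, in shControl (dark) and shFoxM1 (light), with filled points for called members and dotted lines at the medians of all genes tested. Most points lie left of 0, led by Gaa at -1.25 and Map1lc3a at -1.16 in shControl cells, and Gla and Atg7 are the 2 filled points on the right.

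Among the lysosomal membrane proteins, Laptm4a fell in both hairpin lines. Laptm4a (chr12:8921664-8938742, plus strand), a small multispanning protein of late endosomes and lysosomes, was at 276.81, 322.74 and 286.06 FPKM in quiescent and 216.04, 234.73 and 176.16 in activated shControl libraries. In shFoxM1 libraries it was at 274.25, 267.45, 306.61 and 265.56 FPKM quiescent and 192.69, 210.23, 227.1 and 184.51 activated. All 7 activated libraries lay below all 7 quiescent ones. The log2 difference was -0.50 ± 0.14 in shControl (limma, adjusted p = 0.0174) and -0.45 ± 0.12 in shFoxM1 cells (adjusted p = 0.0131).

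Lamp2 (chrX:38401357-38456454, minus strand), which encodes the lysosomal receptor of chaperone-mediated autophagy among its isoforms, was at 186.21, 183.86, 172.24 and 102.88 FPKM in quiescent and 116.26, 98.12, 110.24 and 74.62 in activated shFoxM1 libraries. The fourth quiescent library lay within the activated range, so the groups overlapped, and the log2 difference was -0.67 ± 0.22 (limma, adjusted p = 0.0293). In shControl cells Lamp2 was at 167.79, 161.18 and 115.92 FPKM quiescent and 94.38, 124.22 and 77.9 activated, with a log2 difference of -0.59 that was not called (adjusted p = 0.0873). The cholesterol exporter Npc1 (log2 difference -0.63, adjusted p = 0.0513) and the calcium channel Mcoln1 (-0.60, adjusted p = 0.0687) came close to the threshold in shControl cells. Lamp1 and Cd63, the most abundant membrane members, were not called in either comparison, with log2 differences between -0.22 and -0.03.

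The cathepsins are the main proteases of the lysosome, with Ctsa a serine carboxypeptidase, Ctsd an aspartic protease and the other members cysteine proteases. None of the 5 abundant cathepsins was called in either line in the main model. They were Ctsd, Ctsl, Ctsb, Ctsa and Ctsz, with means of 398, 350.4, 218, 171 and 119.5 FPKM and log2 differences between -0.36 and 0.15 over both comparisons. Some alternative settings called Ctsz and Ctsb lower in shControl cells and Ctsz and Ctsd lower in shFoxM1 cells. Ctsf (chr19:4855130-4860918, plus strand) was at 0.69, 1.26 and 1.21 FPKM in quiescent and 0.38, 0.13 and 0.47 in activated shControl libraries. It was at 0.71, 1.42, 0.97 and 1.2 FPKM in quiescent and 0.09, 0.22, 0.36 and 0.43 in activated shFoxM1 libraries. These levels rest on few reads, and Ctsf passed the filter only through the quiescent libraries, so it had to differ and its call supports nothing. The log2 differences were -0.63 ± 0.20 and -0.70 ± 0.17, and the added 1 FPKM shrinks the difference of a gene this low. In shControl cells the activated libraries of Ctsz (98.11 to 109.33 FPKM) lay below the quiescent ones (114.83 to 130.41).

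The glycosidases held both the gene that fell most in shControl cells and a gene that rose. Gaa (chr11:119267887-119285454, plus strand), the acid alpha-glucosidase that breaks down glycogen in lysosomes and whose loss causes Pompe disease in humans, was at 58.06, 67.06 and 70.76 FPKM in quiescent and 29.04, 16.66 and 39.07 in activated shControl libraries. In shFoxM1 libraries it was at 53.73, 72.07, 60.57 and 50.2 FPKM quiescent and 30.28, 33.32, 33.07 and 49.22 activated. The 7 activated libraries lay below the 7 quiescent ones, with activated shFoxM1 replicate 4 just below the lowest quiescent library. The log2 difference was -1.25 ± 0.25 in shControl (limma, adjusted p = 0.00294) and -0.69 ± 0.22 in shFoxM1 cells (adjusted p = 0.0275). The difference between these responses was 0.56 ± 0.34 and did not pass (adjusted p = 0.993).

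Hexa (chr9:59539540-59565109, plus strand), the alpha subunit of beta-hexosaminidase, was at 121.19, 139.46 and 138.82 FPKM in quiescent and 88.29, 83.97 and 89.82 in activated shControl libraries. It was at 121.98, 128.35, 174.74 and 149.76 FPKM in quiescent and 70.42, 67.51, 77.88 and 92.26 in activated shFoxM1 libraries. The states were apart in both lines, by a log2 difference of -0.60 ± 0.16 in shControl (limma, adjusted p = 0.0124) and -0.89 ± 0.14 in shFoxM1 cells (adjusted p = 4.73e-04).

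Gla (chrX:134588149-134601125, minus strand), the alpha-galactosidase that is lost in Fabry disease in humans, was at 10.26, 12.31, 8.81 and 6.76 FPKM in quiescent and 16.79, 14.13, 16 and 13.64 in activated shFoxM1 libraries. All 4 activated libraries were above the quiescent ones, with a log2 difference of 0.64 ± 0.17 (limma, adjusted p = 0.0117). In shControl cells Gla was at 12, 9.51 and 8.52 FPKM quiescent and 11.74, 15.74 and 12.74 activated, the groups overlapped, and it was not called. The beta-galactosidase Glb1 came close to the threshold in shControl cells (log2 difference -0.44, adjusted p = 0.0516). The beta-glucuronidase Gusb and the sialidase Neu1 were not called in either line.

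Of the luminal cofactors, Psap fell in shControl cells. Psap (chr10:60277627-60302597, plus strand), the precursor of the saposins that help enzymes to degrade sphingolipids, was at 396.11, 489.51 and 448.04 FPKM in quiescent and 306.63, 214.7 and 322.92 in activated shControl libraries. The groups were apart and the log2 difference was -0.67 ± 0.17 (limma, adjusted p = 0.0104). In shFoxM1 libraries it was at 366.81, 442.07, 429.11 and 430 FPKM quiescent and 306.58, 283.45, 303.38 and 379.87 activated. There the groups overlapped through activated replicate 4, and the log2 difference of -0.39 was not called (adjusted p = 0.0571). Npc2 and Grn, the precursor of the granulins, were not called in either line.

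The transcription factors that bind the E-box were not called in the main model. Scaling to the protein-coding sum alone called Tfeb lower, in shControl cells (log2 difference -0.68, limma, adjusted p = 0.0246). Tfeb was at 6.41, 5.57 and 8.05 FPKM in quiescent and 5.98, 3.22 and 5.06 in activated shControl libraries, and at 6.24, 5.21, 5.94 and 7.79 quiescent and 3.98, 6.57, 5.67 and 5.42 activated in shFoxM1 libraries. Tfe3 had a higher level, 15.6 to 31.76 FPKM over the 14 libraries. The quiescent and activated libraries of both genes overlapped in both lines.

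The ATG8 family split into 1 gene that fell and 4 that were not called. Map1lc3a (chr2:155276297-155278073, plus strand), 1 of the mouse LC3 genes, was at 79.67, 110.29 and 158.9 FPKM in quiescent and 61.87, 36.46 and 53.31 in activated shControl libraries. It was at 74.8, 77.1, 80.6 and 118.43 FPKM in quiescent and 28.75, 34.73, 32.47 and 57.06 in activated shFoxM1 libraries. All 7 activated libraries lay below all 7 quiescent ones. The log2 difference was -1.16 ± 0.29 in shControl (limma, adjusted p = 0.00916) and -1.20 ± 0.25 in shFoxM1 cells (adjusted p = 0.00283). Map1lc3b, the LC3 gene most used as a marker of autophagosomes, had a mean of 95.6 FPKM and log2 differences of -0.14 ± 0.15 and -0.12 ± 0.13. Gabarap, Gabarapl1 and Gabarapl2, the other branch of the family, had means of 331, 62 and 36.4 FPKM and log2 differences between -0.34 and 0.18.

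Sqstm1, the p62 receptor that links ubiquitin-tagged cargo to ATG8 proteins, had the widest spread among the 14 members with a mean above 100 FPKM, at 4.14-fold, while Map1lc3a and Gaa, at lower means, spread more. It lay between 499.7 and 581.88 FPKM in the 7 quiescent libraries. In activated shControl libraries it was at 484.77, 335.83 and 1388.88 FPKM, and in activated shFoxM1 libraries at 440.95, 506.73, 733.73 and 1150.46. The activated libraries thus reached from below to above the quiescent range, and the log2 differences of 0.20 ± 0.41 and 0.33 ± 0.35 were not called.

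In the group of autophagy initiation and conjugation, Ulk1 and Ulk2 fell in both lines, Wipi1 fell in shControl cells and Atg7 rose in shFoxM1 cells. Ulk1 (chr5:110784488-110810097, minus strand), the kinase that starts autophagy, was at 10.68, 10.81 and 12.7 FPKM in quiescent and 5.85, 3.27 and 7.67 in activated shControl libraries. It was at 9.52, 9.82, 10.49 and 10.42 FPKM in quiescent and 5.3, 5.62, 5.77 and 8.48 in activated shFoxM1 libraries. The states did not overlap in either line. The log2 difference was -0.97 ± 0.22 (limma, adjusted p = 0.00631) and -0.62 ± 0.19 (adjusted p = 0.0258).

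Ulk2 (chr11:61775649-61855073, minus strand), the related kinase, was at 12.98, 11.23 and 8.28 FPKM in quiescent and 6.83, 6.23 and 7.76 in activated shControl libraries. It was at 13.42, 12.37, 12.4 and 8.47 FPKM in quiescent and 7.95, 9.52, 7.22 and 7.36 in activated shFoxM1 libraries, where the groups overlapped through quiescent replicate 4. The log2 differences were -0.56 ± 0.19 (limma, adjusted p = 0.0426) and -0.48 ± 0.17 (adjusted p = 0.0415), near the threshold in both lines.

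Wipi1 (chr11:109573331-109611967, minus strand), which binds phosphatidylinositol 3-phosphate on the forming membrane, was at 24.3, 29.71 and 26.76 FPKM in quiescent and 15.2, 12.51 and 18.39 in activated shControl libraries (log2 difference -0.78 ± 0.16, limma, adjusted p = 0.00273). In shFoxM1 libraries it was at 23.6, 24, 20.76 and 21.73 FPKM quiescent and 15.67, 16.77, 20.48 and 17.53 activated. These groups did not overlap either, but the log2 difference of -0.34 was not called (adjusted p = 0.0696). The difference between the 2 responses was 0.44 ± 0.21 (limma, adjusted p = 0.993).

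Atg7 (chr6:114643097-114860614, plus strand), the E1-like enzyme that activates ATG8 proteins and ATG12, was at 9.69, 9.07, 10.49 and 11.91 FPKM in quiescent and 13.21, 12.6, 14.46 and 18.92 in activated shFoxM1 libraries. All activated libraries lay above the quiescent ones, with a log2 difference of 0.47 ± 0.15 (limma, adjusted p = 0.0272). In shControl libraries it was at 11.08, 9.86 and 11.31 FPKM quiescent and 12.83, 11.18 and 15.66 activated, and it was not called. Becn1, a subunit of the lipid kinase complex, and Atg5, which helps to attach ATG8 proteins, were not called in either line.

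**Figure D3:**
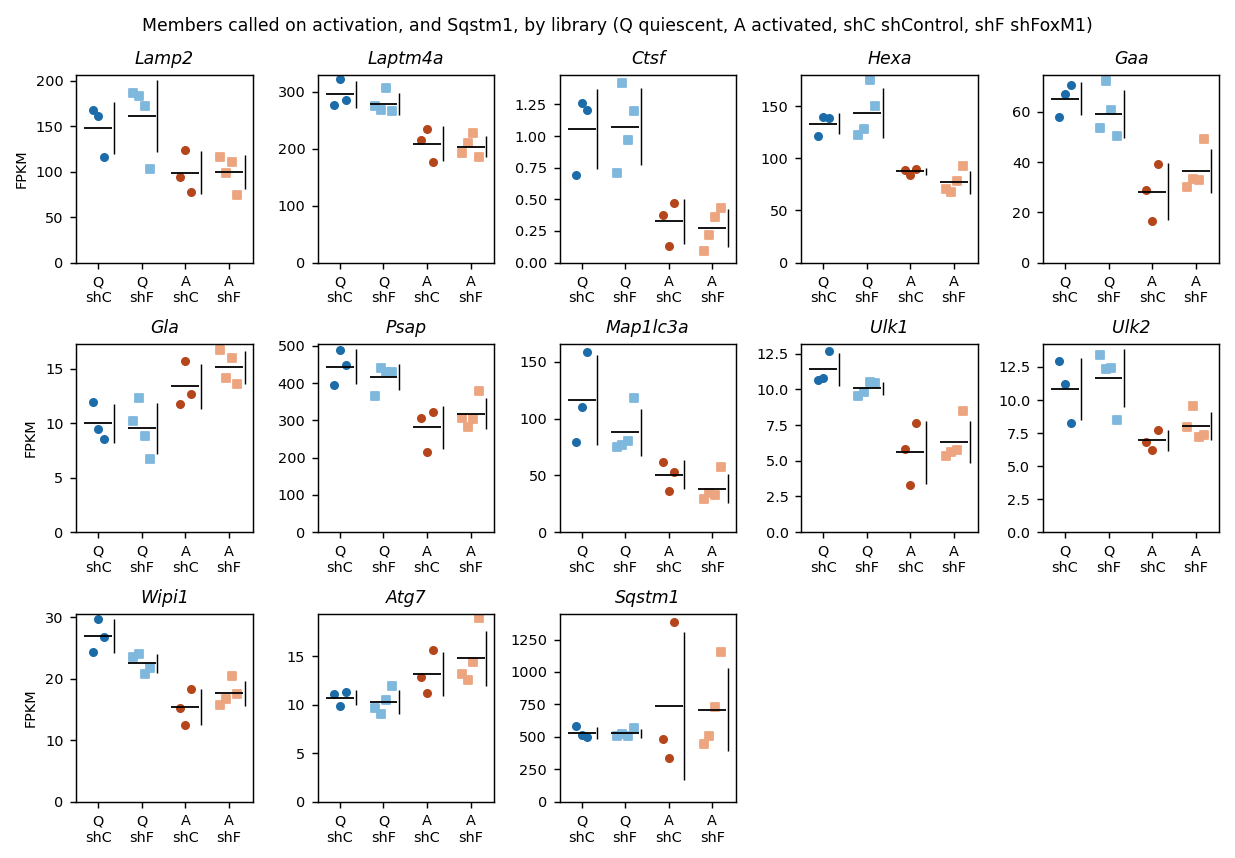
FPKM by library of the 12 members called in at least 1 activation comparison and of Sqstm1, in quiescent (Q) and activated (A) shControl (shC) and shFoxM1 (shF) cells, with a horizontal line at the group mean and a vertical bar of ± SD (n = 3 or 4). The activated libraries of Map1lc3a, Gaa and Laptm4a all lie below the quiescent ones, Gla and Atg7 rise, and Sqstm1 ranges from 335.83 to 1388.88 FPKM in activated shControl cells.

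Not all of these calls held when 1 library was left out. In shControl cells Gaa, Map1lc3a, Ulk1 and Wipi1 were called under all 24 alternative settings. Without quiescent shControl replicate 2, 5 calls were lost, Hexa (limma, adjusted p = 0.054), Psap (0.0537), Laptm4a (0.084), Ctsf (0.108) and Ulk2 (0.126). Psap was lost also without activated shControl replicate 2 (adjusted p = 0.0517), and Laptm4a without activated shControl replicate 3 (0.0595). Ctsf was lost without quiescent shControl replicate 3 (adjusted p = 0.0836), activated shControl replicate 1 (0.0529) or activated shControl replicate 2 (0.113). Ulk2 was lost without any of 6 other libraries, which were quiescent shControl replicate 1, activated shControl replicates 1 and 2, quiescent shFoxM1 replicates 2 and 3 and activated shFoxM1 replicate 1 (adjusted p between 0.0515 and 0.157). Median-of-ratios scaling ended the calls of Laptm4a (adjusted p = 0.136), Hexa (0.0781), Psap (0.0517) and Ulk2 (0.0592). That of Ulk2 also ended with no filter on low values, after removal of the trend on length and GC content and in a fit of the compared groups alone (0.0745, 0.0689 and 0.0735), and that of Laptm4a under the last of these (0.056).

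In shFoxM1 cells Map1lc3a, Hexa and Laptm4a, beside Ctsf, whose direction was fixed, were called under all 24 settings. Without quiescent shFoxM1 replicate 2 or without replicate 3, the calls of Lamp2, Gaa, Ulk1, Ulk2 and Atg7 were lost (limma, adjusted p between 0.052 and 0.105). Lamp2, Ulk2 and Atg7 were lost also without quiescent shFoxM1 replicate 1 (0.081, 0.113 and 0.0644) and without activated shFoxM1 replicate 4 (0.0793, 0.0811 and 0.0766). Gaa and Ulk1 were lost without activated shFoxM1 replicate 1, 2 or 3 (adjusted p between 0.0619 and 0.081). Ulk2 was lost as well without activated shFoxM1 replicate 1 or 3, quiescent shControl replicate 2 or activated shControl replicate 1 (adjusted p between 0.0527 and 0.0995). Lamp2 was lost without activated shFoxM1 replicate 2 (0.062) and Atg7 without activated shFoxM1 replicate 3 (0.0529). With no filter on low values, Lamp2, Gaa, Ulk1 and Ulk2 were lost (0.0684, 0.0654, 0.0568 and 0.0725), and after scaling to the protein-coding sum Gla and Atg7 (0.108 and 0.282).

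Markers of muscle cells moved with the state, as did some other signs. All 8 markers of muscle fibres (Myog, Myh3, Actc1, Acta1, Ckm, Mylpf, Ttn and Tnnc1) fell on activation in both lines by limma's test. Their summed level was 291, 1531 and 1969 FPKM in quiescent shControl and 348, 459.5, 91.4 and 1015 in quiescent shFoxM1 libraries. It was 64.2 to 81.3 FPKM in activated shControl and 20.4 to 100.2 in activated shFoxM1 libraries. Of the 5 myoblast markers, Myod1, Cdh15 and Chrna1 fell in both lines and Des and Myf5 were not called. Cdh15 was at 44.19, 54.63 and 50.4 FPKM in quiescent and 16.8, 6.25 and 23.22 in activated shControl libraries. The summed level of the 5 was 224 to 309.5 FPKM in quiescent shControl, 182 to 365 in quiescent shFoxM1, 119 to 260.1 in activated shControl and 94 to 189 in activated shFoxM1 libraries. Of 4 adipocyte markers, Pparg was the 1 tested and rose in both lines (log2 differences 1.20 ± 0.23 and 0.98 ± 0.20, limma, adjusted p = 0.00195 and 0.00214), and Adipoq, Plin1 and Fabp4 were at most 0.54 FPKM. The summed level of the 4 was 2.58 to 7.04 FPKM in quiescent and 8.94 to 13.7 in activated libraries. Mitochondrial transcripts took 5.85 to 10.51% of the protein-coding sum in activated libraries. Quiescent libraries had higher shares, up to 16.55%, except quiescent shFoxM1 replicate 4 with 5.51%. The part of these markers and of the mitochondrial share in the differences between states was not tested.

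The other genes of the lysosome and of autophagy were followed in 7 lists with 134 genes, of which 126 were tested. In shControl cells 29 of them fell and 3 rose, with a median log2 difference of -0.24, and in shFoxM1 cells 19 fell and 4 rose, with a median of -0.12. The 19 include Idua, whose call supports nothing, as given below. The shares were 23.0% lower and 2.38% higher in shControl cells, beside 16.5% and 11.7% of all genes, and 15.1% lower and 3.17% higher in shFoxM1 cells, beside 12.3% and 18.3%. The counts depended on single libraries. In shControl cells the 29 lower calls became 13 without quiescent shControl replicate 2, 19 without activated shControl replicate 1 and 18 without activated shControl replicate 2. Of all 12432 genes, 3515 were called in the main model (1460 higher). Without these libraries, in that order, 1903 (801 higher), 2655 (1196 higher) and 2196 (990 higher) were called. In shFoxM1 cells the 19 lower calls became 12 without quiescent shFoxM1 replicate 3 or activated shFoxM1 replicate 2 and 30 without quiescent shFoxM1 replicate 4, and the 4 higher calls became 0 without quiescent shFoxM1 replicate 2 and 1 without quiescent shFoxM1 replicate 1 or activated shFoxM1 replicate 3. Of all genes, 3814 were called there in the main model (2279 higher). Without the first 3 of these libraries, in that order, 2705 (1599 higher), 2809 (1664 higher) and 4898 (2459 higher) were called. Without the last 3, in that order, 2846 (1696 higher), 3084 (1905 higher) and 2949 (1753 higher) were called.

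Of 27 other lysosomal hydrolases and cofactors tested, 10 fell in shControl (37.0%) and 9 in shFoxM1 cells (33.3%) and none rose. Of all genes tested, 16.5% and 12.3% were called lower in these comparisons. Without quiescent shControl replicate 2, 4 fell in shControl cells. Among the 9 was Idua, at 1.51, 2.02, 3.92 and 1.65 FPKM in quiescent and 0.69, 0.84, 0.92 and 1.27 in activated shFoxM1 libraries. Without its quiescent libraries Idua would not have passed the filter on low values, so its call supports nothing. Naglu, an enzyme of heparan sulfate breakdown, was at 22.35, 32.29 and 39 FPKM in quiescent and 13.09, 6.93 and 13.82 in activated shControl libraries (log2 difference -1.41 ± 0.26, limma, adjusted p = 0.00175). In shFoxM1 cells its log2 difference was -1.05 ± 0.23 (adjusted p = 0.00335). The lysosomal phospholipase Pla2g15 fell by 1.16 on the log2 scale in shControl and by 0.63 in shFoxM1 cells, and the cysteine protease Ctso by 1.12 and 1.09.

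Of 17 subunits of the V-ATPase, the proton pump that acidifies the lysosome, none was called in shControl cells. In shFoxM1 cells Atp6v0c (log2 difference 0.55 ± 0.17, limma, adjusted p = 0.0269) and Atp6v1c1 (0.63 ± 0.20, adjusted p = 0.0303) rose, and none fell. The share that rose was 11.8% of the list, below the 18.3% of all genes tested that were called higher. The median of the list was 0 in shControl and 0.02 in shFoxM1 cells. Both calls were lost without quiescent shFoxM1 replicate 1, quiescent shFoxM1 replicate 2 or activated shFoxM1 replicate 3, that of Atp6v0c also without quiescent shFoxM1 replicate 3, and that of Atp6v1c1 without quiescent shFoxM1 replicate 4 or activated shFoxM1 replicate 2 (adjusted p between 0.0528 and 0.197 over the alternatives that lost them).

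Of 15 other lysosomal membrane proteins, 4 fell (1 without quiescent shControl replicate 2) and 1 rose in shControl cells, and 2 fell and 1 rose in shFoxM1 cells. In shControl cells these are 26.7% lower and 6.67% higher, beside 16.5% and 11.7% of all genes tested. In shFoxM1 cells they are 13.3% and 6.67%, beside 12.3% and 18.3%. The cystine exporter Ctns fell in both, with log2 differences of -0.99 ± 0.23 (limma, adjusted p = 0.0065) and -0.76 ± 0.20 (adjusted p = 0.0112). The gene that rose was Cd68, a relative of the LAMP proteins that is used as a marker of macrophages. It was at 1.57, 1.04 and 1.54 FPKM in quiescent and 13.56, 11.29 and 4.12 in activated shControl libraries (log2 difference 2.03 ± 0.44, adjusted p = 0.00423). In shFoxM1 libraries it was at 1.16, 1.24, 3.05 and 1.63 FPKM quiescent and 8.95, 1.81, 6.73 and 7.32 activated (1.28 ± 0.38, adjusted p = 0.0198). Of the 8 listed macrophage and blood cell markers, Cd14 was at 8.67, 10.86 and 8.81 FPKM in quiescent and 14.23, 16.98 and 10.12 in activated shControl libraries, and its log2 differences of 0.48 ± 0.23 and 0.41 ± 0.20 were not called. Lyz2 was at most 0.72, Csf1r 0.22, Fcgr1 0.1, Mpeg1 0.07, Itgam 0.02 and Ptprc 0.01 FPKM, and Adgre1 was listed at 0. The sum of the 8 was 8.55 to 15.2 FPKM in quiescent and 10.4 to 17.8 in activated libraries. The part of such cells in the level of Cd68 was not tested. In shFoxM1 cells the call of Cd68 was lost without quiescent replicate 1 or 2 or activated replicate 1 or 3 (adjusted p between 0.0525 and 0.0671 over the alternatives that lost it).

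Of 8 genes that sort enzymes to lysosomes, 2 fell in shControl cells (1 without quiescent shControl replicate 2), among them Igf2r, the large mannose 6-phosphate receptor (log2 difference -0.90 ± 0.20, limma, adjusted p = 0.00527), and 1 fell in shFoxM1 cells. These shares were 25.0% and 12.5%, beside 16.5% and 12.3% of all genes tested. Of 29 other genes of the autophagy machinery, 7 fell in shControl (24.1%) and 4 in shFoxM1 cells (13.8%), beside the same shares of all genes. Without quiescent shControl replicate 2, 2 of the 29 fell in shControl cells. Uvrag, a subunit of the lipid kinase complex, fell in both, with log2 differences of -1.07 ± 0.24 (adjusted p = 0.00494) and -0.70 ± 0.21 (adjusted p = 0.0197). The second call was lost without quiescent shFoxM1 replicate 2 or 3 or activated shFoxM1 replicate 1 (adjusted p between 0.0595 and 0.0702).

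Of 8 autophagy receptors, Nbr1, Calcoco1 and Bnip3 fell in both lines, which is 37.5% of the list. Of all genes tested, 10.2% were called lower in both lines. Calcoco1, a receptor for parts of the endoplasmic reticulum, was at 37.92, 55.3 and 55.05 FPKM in quiescent and 16.45, 7.24 and 27.67 in activated shControl libraries (log2 difference -1.63 ± 0.42, limma, adjusted p = 0.011). That call was lost without activated shControl replicate 2 (adjusted p = 0.0568). In shFoxM1 cells its log2 difference was -1.75 ± 0.36 (adjusted p = 0.0028). Of 22 genes of nutrient signalling to TFEB and autophagy, 3 fell and 2 rose in shControl cells and 1 rose in shFoxM1 cells. In shControl cells these are 13.6% lower and 9.09% higher, beside 16.5% and 11.7% of all genes tested. In shFoxM1 cells 4.55% rose, beside 18.3% of all genes, and none fell, beside 12.3%. Lamtor5, a subunit of the complex that anchors MTORC1 to the lysosome, rose in both, by 0.66 ± 0.14 (adjusted p = 0.00334) and 0.43 ± 0.12 (adjusted p = 0.014) on the log2 scale. The second call was lost without quiescent shFoxM1 replicate 2, with adjusted p between 0.0519 and 0.229 over the alternatives that lost it.

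**Figure D4:**
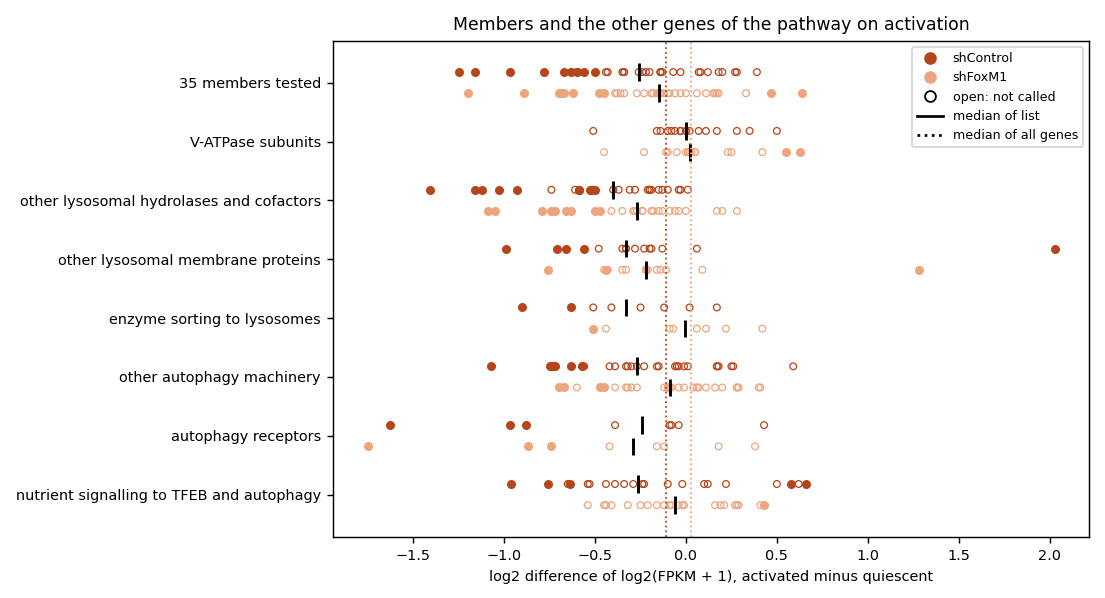
Log2 difference (log2(FPKM + 1) scale) between activated and quiescent cells of every tested gene, for the 35 members and the 7 lists of other pathway genes, in shControl (dark, upper row of each list) and shFoxM1 (light, lower row), with filled points for called genes, black ticks at list medians and dotted lines at the medians of all genes. The V-ATPase list is centred near 0, the hydrolase list lies left of it with a median of -0.40 in shControl cells, and the filled point at 2.03 is Cd68.

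No member passed the threshold for the knockdown in either state. Foxm1, the targeted gene, did not pass it in either state, so a missed threshold does not show that a member was unchanged. In quiescent cells 0 of 35 members were called by limma, as were 0 of the 12432 genes tested (0%), with 0 members and 263 genes at an unadjusted p below 0.05. The median log2 difference between shFoxM1 and shControl was -0.03 over the members and -0.02 over all genes. Every quiescent shFoxM1 library lay below every shControl one for Ulk1 and Wipi1 and above for no member, beside 2.45% of all genes lower and 0.668% higher. Ulk1 had 9.52 to 10.49 against 10.68 to 12.7 FPKM, and Wipi1 20.76 to 24 against 24.3 to 29.71. Their log2 differences were -0.16 ± 0.21 and -0.25 ± 0.15.

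In activated cells 0 of 35 members and 0% of all genes were called, with 1 member and 978 genes at an unadjusted p below 0.05. The member was Npc1, at 14.21, 16.96, 18.73 and 20.35 FPKM in activated shFoxM1 and 10.97, 8.99 and 17.89 in activated shControl libraries. The groups overlapped, and the log2 difference was 0.49 ± 0.21 (limma, adjusted p = 0.629). The median log2 difference was 0.13 over the members and 0.11 over all genes. Every shFoxM1 library lay above every shControl one for Ctsz and Neu1 and below for no member, beside 6.68% of all genes higher and 2.73% lower. Ctsz had 111.29 to 129.36 against 98.11 to 109.33 FPKM (log2 difference 0.18 ± 0.11), and Neu1 19.55 to 24.39 against 15.62 to 18.56 (0.34 ± 0.16). With library weights, limma called 303 genes in quiescent and 2075 in activated cells, among them 0 and 2 members (Npc1 higher and Map1lc3a lower).

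**Figure D5:**
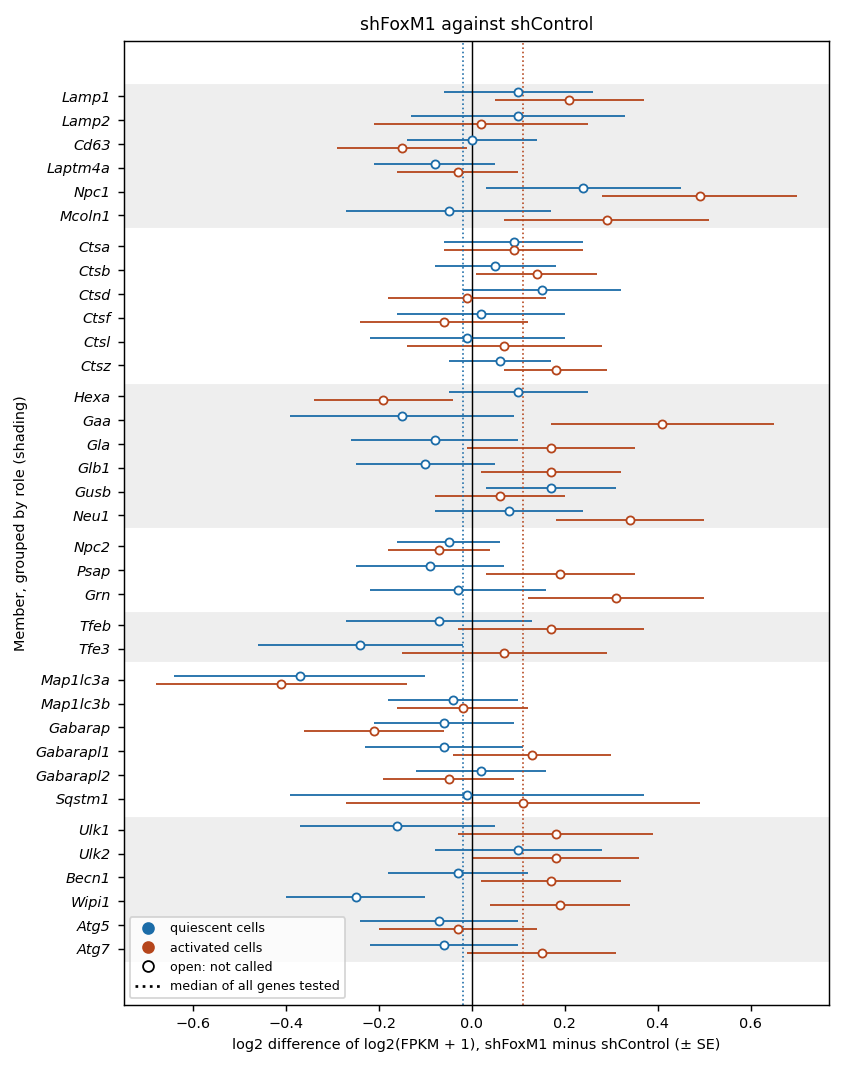
Log2 difference (± SE, log2(FPKM + 1) scale) between shFoxM1 and shControl cells for the 35 members, in quiescent (blue) and activated (brown) cells, all open because none was called, with dotted lines at the medians of all genes. Points lie between -0.37 and 0.24 in quiescent and between -0.41 and 0.49 in activated cells, with Npc1 farthest to the right.

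The difference between the activation responses, shFoxM1 minus shControl, was called for 0 of 35 members and for 0% of all genes by limma, with 0 members and 433 genes at an unadjusted p below 0.05 and 0 genes called with library weights. The median difference was 0.12 over the members and 0.13 over all genes. It was largest for Gaa (0.56 ± 0.34) and most negative for Hexa (-0.29 ± 0.21). A p that misses the threshold does not show that the responses were alike, and the SE of these differences was between 0.16 and 0.54 over the members.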

How the data were processed

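RNA of C2C12 cells was extracted with Trizol and sequenced on an Illumina HiSeq instrument from TruSeq RNA libraries, per the labels' protocols. The authors deposited FPKM values for 49585 genes in 14 libraries, with no counts per gene. The name of the deposited table gives RSEM and GENCODE. Bowtie 0.12.9, Cufflinks 2.1.1, HTSeq and the mm10 build appear in the submitters' processing notes with no role. Which GENCODE release, read filters and strand setting were used is not given in the sources used here, so reads of a gene and of an antisense gene over it cannot be told apart. Symbols and positions came from GENCODE M21 on GRCm38, which is the same assembly as mm10, and 49326 identifiers matched.

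Values were tested as log2(FPKM + 1) with limma 3.58.1 in R 4.3.3, in 1 model of 4 group means over all 14 libraries with an empirical Bayes trend. A gene entered when 3 or more libraries reached 1 FPKM, and p-values were adjusted by the Benjamini-Hochberg method over these 12432 genes with a threshold of 0.05. FPKM are given per library or as mean ± SD, and log2 differences ± SE. A difference on this scale understates the change of low genes. The model was tested on simulated data.

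Depth was estimated from low values of genes with 1 transcript, where single reads show as equal steps once FPKM is multiplied by length. Between 89.2 and 93.0% of these values lay within 0.15 read of a step. It is not a count, so no counting interval is given. In each library 4 short RNAs made up 71.5 to 80.5% of the FPKM sum.

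The members and lists were chosen with earlier results of these data known. All members were described, with values in every library for those called in an activation comparison. From the other pathway lists, counts are given with examples among the 3 genes of smallest p per comparison. Sqstm1, Tfeb, Npc1, Ctsz and Neu1 are given by library or range outside that rule, after their values were seen. Alternatives were another pseudocount, no filter, median-of-ratios scaling, scaling to the protein-coding sum, removal of a GC and length trend (mgcv 1.9.3) alone and with a replicate block, a model of the compared groups, the replicate block, library weights, and leaving out each library. Leaving out activated shControl replicate 3 and activated shFoxM1 replicate 4 together was added after seeing the data. Protein sequences were not used here.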

Additional observations from a re-analysis of the deposited data

Results flagged for a closer look

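In groups of 4 libraries, a value was singled out when its gap to the nearest other library was too large a part of the group's range by Dixon's criterion. Of 70 member and group pairs tested, 7 were singled out, where chance gives about 1 in 20 for a single pair. The pairs share the libraries of the shFoxM1 groups and are not independent, so the count does not show an excess. Quiescent shFoxM1 replicate 4 stood apart with a low Lamp2 (102.88 FPKM, the others 172.24 to 186.21) and a high Map1lc3a (118.43 FPKM, the others 74.8 to 80.6). Activated shFoxM1 replicate 4 stood apart with a high Gaa (49.22 FPKM, the others 30.28 to 33.32), a high Ulk1 (8.48 FPKM, the others 5.3 to 5.77) and a high Glb1 (26.49 FPKM, the others 18.71 to 19.72). Activated shFoxM1 replicate 3 stood apart with a high Map1lc3b (117.71 FPKM, the others 79.23 to 85.47) and a high Gabarapl2 (47.47 FPKM, the others 33.41 to 35.59). Groups of 3 libraries were not tested in this way. Without activated shFoxM1 replicate 4, Gaa and Ulk1 stayed called on activation in shFoxM1 cells.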

How the results depend on the processing

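No call of a member changed its direction under any alternative, and all other counts of called members were within 1.5 times the values in the report. In shControl cells (9 members called on activation), scaling to the protein-coding sum called 22, all lower, and library weights called 20, of which 18 were lower. Of all 12432 genes, these settings called 4456 and 7356, beside 3515 in the main model. Leaving out single libraries gave 4 to 13 members, with 4 without quiescent shControl replicate 2, where 1903 of all genes were called. In shFoxM1 cells (10 members called), 6 were called with no filter on low values, 16 after protein-coding scaling (all lower) and 18 with library weights. Of all genes these called 3430 of 24415, 3643 of 12432 and 7055 of 12432, beside 3814 in the main model. Leaving out single libraries gave 5 to 12, with 5 without quiescent shFoxM1 replicate 2 or replicate 3, where 2846 and 2705 of all genes were called. Library weights called 2 members for the knockdown in activated cells, beside 2075 of all genes. Called lower under some alternatives alone were, in shControl cells, Lamp1, Npc1, Mcoln1, Ctsb, Ctsz, Glb1, Neu1, Grn, Tfeb, Map1lc3b, Gabarapl1 and Becn1. In shFoxM1 cells these were Lamp1, Cd63, Npc1, Mcoln1, Ctsd, Ctsz, Glb1, Map1lc3b and Gabarap, and Gusb was called higher with library weights. The cause of these shifts was not tested, except that protein-coding scaling moved the median log2 difference of all genes from -0.11 to -0.36 in shControl and from 0.03 to -0.19 in shFoxM1 cells, with member medians of -0.57 and -0.40. Of all genes called in shControl cells 41.5% were higher, which became 57.4% with median-of-ratios scaling (median 0.02), 53.3% with the GC and length trend removed (median 0.01) and 14.6% after protein-coding scaling. In shFoxM1 cells 59.8% were higher, and 29.1% after protein-coding scaling. Library weights came from limma's gene-by-gene estimate, used because the default estimate did not converge. Whether a replicate number marks libraries that belong together is not given in the labels. The correlations of same-numbered deviations were between -0.21 and 0.38 and cannot decide it. Between the states they were -0.21, -0.07 and 0.13 in shControl and 0.38, 0.09, 0.25 and 0.23 in shFoxM1 cells. With the replicate block 10 members were called in shControl (Lamp2 added, limma, adjusted p = 0.0207), 10 in shFoxM1 cells and 0 in the other comparisons. Of all genes, 3983 and 4167 were called in shControl and shFoxM1 cells under that setting. Without the 2 activated libraries of lowest mitochondrial share in their groups, 13 and 8 members were called, beside 3821 and 4169 of all genes. Depth limits Ctsf and Ctsk, which rest on few reads.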
